A study of Homo sapiens with 9 samples.

Results

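The genes of glycolysis and of the response to low oxygen were followed in A549 cells, a human lung adenocarcinoma line, after knockdown of REV1, a DNA polymerase that copies past damaged bases. The set holds 41 of the 18143 genes listed for each library, and all 41 symbols were found. It was chosen by gene symbol, with earlier results of these data known. It comprises 22 genes of glucose breakdown and pyruvate use, 6 genes of the hypoxia-inducible factors (HIF) and their control, and 13 genes known as HIF targets. RNA was collected 48 h after transfection with a scramble siRNA, with SiREV1#1 or with SiREV1#2, an siRNA each against REV1, in 3 replicates per group and 9 libraries in all. All groups were the same line in the same serum-containing medium, every group was transfected, and the labels name no change of oxygen or glucose. The labels do not say whether replicates came from separate cultures, so p-values measure the spread between these samples, which may be technical. Whether a lower value means fewer cells with the transcript or less of it per cell cannot be told apart in bulk RNA.

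Glycolysis turns glucose into pyruvate in the cytosol. Hexokinases trap glucose as glucose 6-phosphate, phosphofructokinases commit it to breakdown, aldolase splits the sugar, and the enzymes from TPI1 to PKM harvest ATP and NADH, after which lactate dehydrogenase can reduce pyruvate to lactate. HIF is a pair of an alpha subunit (HIF1A or EPAS1, also called HIF-2 alpha) and the beta subunit ARNT. With oxygen present, the prolyl hydroxylases EGLN1 and EGLN3 mark the alpha subunit for the ubiquitin ligase part VHL and for degradation. When oxygen falls the alpha subunit persists and HIF activates glycolytic enzymes, PDK1, which keeps pyruvate out of mitochondria, and genes such as CA9, VEGFA and BNIP3. Lung adenocarcinoma lines commonly use much glucose even with oxygen present.

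HIF binds a short core written A or G followed by CGTG, and several members carry that core close to the start of transcription. RefSeq promoter windows on GRCh38.p14, from 250 bases before to 50 bases after a start, were found for 37 members. VEGFA, VHL, NDRG1 and BNIP3L had no window in the table used here. The letters ACGTG, read on both strands, were in at least 1 window of 22 of the 37 members (59.5%), against 24.9% of 27305 genes with a window and 32.9% of the 9115 of these with a mean over 1 FPKM. The letters GCGTG were in 62.2% of the members, against 40.6% and 59.3%. Either form of the core was in 89.2% of the members, against 52.4% and 71%. The 37 members had 65 windows, against 35116 for the 27305 genes and 13361 for the 9115. A gene with more windows has more room for a match, and the shares take no account of this. ACGTG also sits inside CACGTG, the E-box of other factors. A match is no proof of binding, and no binding was measured. ADM, EGLN3, KDM3A, PFKFB4 and CA12, which differed between the siRNAs (below), held no ACGTG in their windows and are not shown. Of these, ADM, KDM3A, PFKFB4 and CA12 held GCGTG, the other form of the core, and EGLN3 held neither form. Stretches of 30 bases upstream of the start follow for some of the members named below that held ACGTG there. They run 5′ to 3′ on the strand of the gene, with each whole ACGTG or its reverse complement CACGT in capitals.
CA9 (chr9:35673898-35673927, plus strand): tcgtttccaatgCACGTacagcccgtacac
P4HA1 (chr10:73096935-73096964, minus strand): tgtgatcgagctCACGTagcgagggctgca
ENO2 (chr12:6914450-6914479, plus strand): acccgcgctcgtACGTGcgcctccgccggc
ALDOC (chr17:28576906-28576935, minus strand): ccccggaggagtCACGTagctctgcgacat
EGLN1 (chr1:231422288-231422317, minus strand): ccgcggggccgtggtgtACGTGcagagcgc
LDHA (chr11:18394478-18394507, plus strand): cgtgggttcccgCACGTccgccggcccccc
In CA9 the motif began 18 bases before the start and in EGLN1 13 bases before it. In P4HA1 it began 86 and in ENO2 118 bases before it. ALDOC and LDHA held further matches in the same windows, at 3 and 5 positions upstream in all. A CACGTG is counted on each strand, so positions need not be separate copies.

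Levels are given in FPKM, in which fragments are divided by transcript length and by library size, and tests used the estimated read counts. Total counts were between 13059082 and 20166451 in 8 libraries, with the lowest in SiREV1#1 replicate 1. The count column of SiREV1#2 replicate 3 repeats that of replicate 2, so tests on counts hold 8 libraries and FPKM values hold 9. REV1 itself stood at 7.23, 7.9 and 8.44 FPKM in scramble, at 2.6, 2.92 and 3.36 after SiREV1#1 and at 3.62, 3.36 and 3.18 after SiREV1#2, and no value after either siRNA reached the scramble range. REV1 fell by 1.26 ± 0.13 (SE) on the log2 scale after SiREV1#1 and by 1.26 ± 0.15 after SiREV1#2 (edgeR, adjusted p = 0.00165 and 0.00989 with the replicate number as a term, and 0.042 and 0.154 without it). Of 10 genes taken as markers of A549 and of epithelium, 7 were above 1 FPKM in every library, led by KRT8, KRT18 and ALDH1A1. The epithelial markers KRT19 and EPCAM lay near 1 FPKM or below, from 0.1 to 2.38. Of 8 markers of blood, fibroblast and endothelial cells, the 7 other than CD68 were at 1.57 FPKM or less in every library.

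The 9 libraries did not fall into 3 groups of alike replicates. In each group replicate 1 stood apart from replicates 2 and 3, and the heat map of the members shows this as a block of 3 columns. The labels do not say what the replicate 1 libraries share. Each siRNA was therefore read within same-numbered libraries. Matching 2 with 2 and 3 with 3 follows the numbers alone. Replicates 2 and 3 of different groups also deviated together, with correlations of 0.751 to 0.914. Each count of called members is given both without and with the replicate number as a term, called the replicate block. The replicate block lowered the typical spread between replicates, the biological coefficient of variation, from 0.412 to 0.161. With a term for replicate 1 alone it was 0.142.

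**Figure D1:**
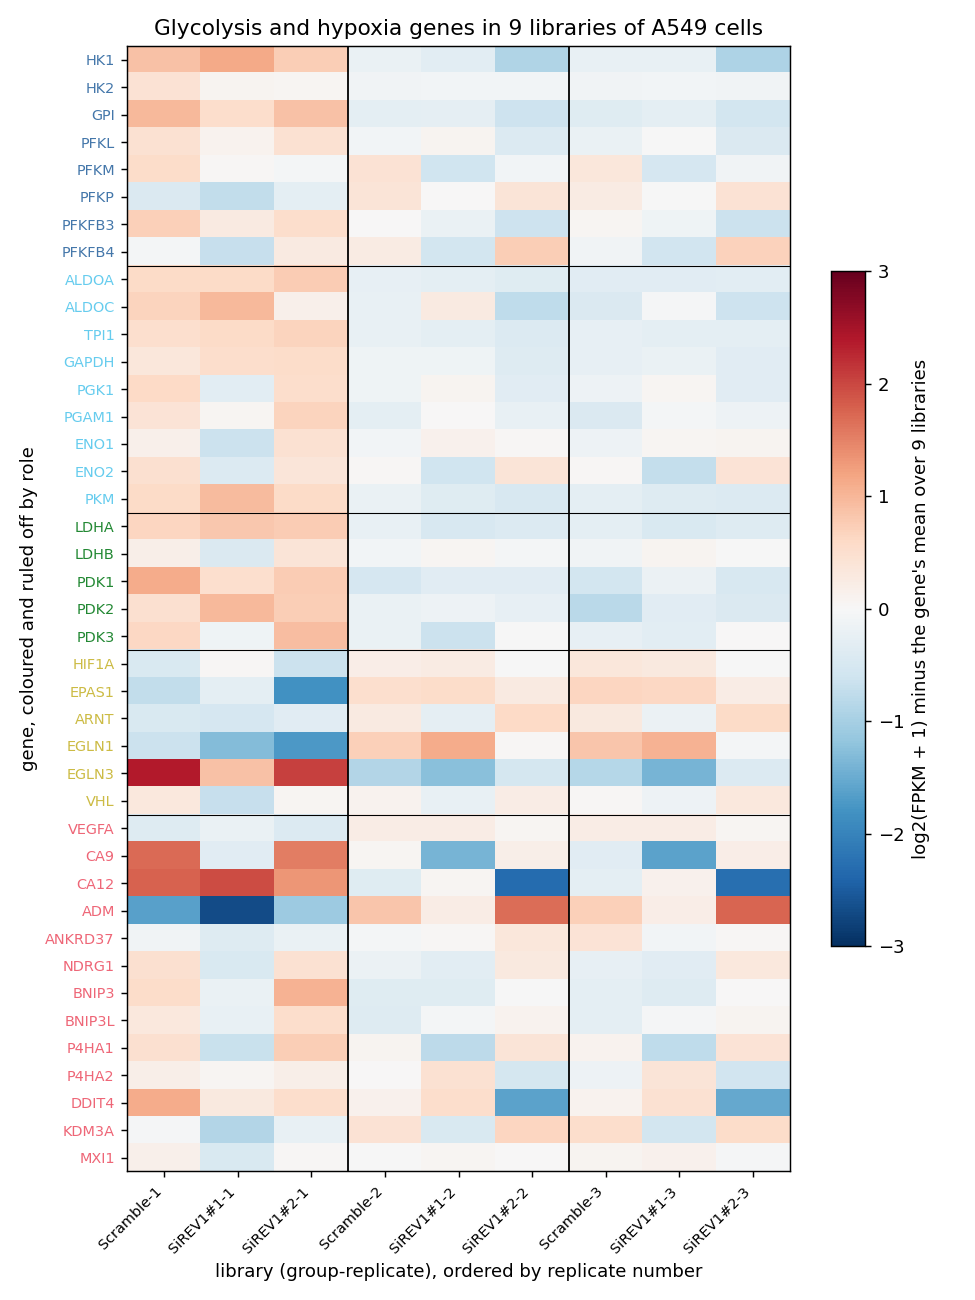
Each row is 1 of the 41 genes, ruled off by role from glucose entry at the top to HIF targets at the bottom, and each column 1 of 9 libraries ordered by replicate number. Colour is log2(FPKM + 1) minus the mean of the gene over the 9 libraries. The 3 replicate 1 columns at the left are mostly red in the glycolysis rows and blue for EGLN1, EPAS1 and ADM.

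The members differed by more than 4 orders of magnitude in level. GAPDH, the glyceraldehyde 3-phosphate dehydrogenase, had a mean of 6027 FPKM over the 9 libraries and ranked between 3 and 5 among all genes in each library. ENO1 (enolase), ALDOA (aldolase), PKM (pyruvate kinase), LDHA, LDHB and TPI1 followed with means of 1811, 1432, 1408, 976.5, 867.1 and 758.3 FPKM. The order among ENO1, ALDOA and PKM changed from library to library. At the entry to glycolysis the hexokinase HK1 had a mean of 19.6 FPKM while HK2 was at 0.49 FPKM or less in every library. PFKP was the highest of the 3 phosphofructokinase genes, with a mean of 274.9 FPKM against 21.4 for PFKM and 20.1 for PFKL. Of the HIF alpha subunits EPAS1 had a mean of 219.2 and HIF1A of 146.5 FPKM. Among HIF targets, ADM, CA12 and DDIT4 were the highest, with means of 215.5, 162.5 and 113.7 FPKM. HK2 and ANKRD37 were the only members with a mean of 1 FPKM or less. Several of these genes, among them GAPDH, PGK1, LDHA and ENO1, have near-identical pseudogenes, and the sources used here do not give how shared reads were counted.

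After SiREV1#1, CA9, a carbonic anhydrase on the cell surface and a classic HIF target, was lower than in scramble in all 3 same-numbered pairs, and so were P4HA1, KDM3A, EGLN3, ADM, PFKFB4, ENO2 and PFKM. ALDOC, the aldolase of brain, was higher in all 3. With the replicate block these 9 members passed an adjusted p of 0.05 in edgeR, 8 lower and 1 higher. Over all 14205 genes tested, 6.96% were called lower and 5.32% higher in the same fit, and 8 of 41 is 19.5%. Without the block 0 of 41 members were called, against 0.296% of all genes. An unadjusted p under 0.05 was reached there by 7 members, beside 1385 of the 14205 genes. The median log2 fold change of the members was -0.036 with the block, beside 0.0042 for all genes. In FPKM, 15 of the 39 members with a mean over 1 FPKM (38.5%) were lower in 3 of 3 pairs, beside 35.5% of all such genes, and 3 (7.69%) were higher, beside 19.6%.

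CA9 stood at 24.8, 7.3 and 5.23 FPKM in scramble replicates 1, 2 and 3, at 5.28, 2.02 and 1.59 after SiREV1#1 and at 22.0, 7.89 and 8.16 after SiREV1#2. In each replicate number the SiREV1#1 library was the lowest of the 3, although its replicate 1 overlapped the scramble range. CA9 fell by 1.87 ± 0.15 (SE) on the log2 scale, to 0.273 of scramble (adjusted p = 0.00106, edgeR with the replicate block). Without the block the value was -1.96 ± 0.80, with an adjusted p of 0.476.

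P4HA1, a subunit of the prolyl hydroxylase that matures collagen, was at 24.6, 18.5 and 18.6 FPKM in scramble, at 10.6, 9.73 and 9.88 after SiREV1#1 and at 29.8, 23.2 and 23.3 after SiREV1#2. All SiREV1#1 values lay under all values of the other groups, which overlapped each other. The log2 fold change of P4HA1 after SiREV1#1 was -0.94 ± 0.12 with the block (adjusted p = 0.00358) and -0.95 ± 0.21 without it (adjusted p = 0.154).

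KDM3A, a histone demethylase induced by HIF, was at 13.8, 19.5 and 20.7 FPKM in scramble, at 7.25, 10 and 9.41 after SiREV1#1 and at 12, 22.7 and 21.1 after SiREV1#2. All SiREV1#1 values lay under all values of the other groups, and KDM3A fell by 0.96 ± 0.15 on the log2 scale (adjusted p = 0.00816 with the block and 0.277 without). EGLN3, an oxygen-sensing hydroxylase that HIF itself induces, was at 30.3, 2.3 and 2.34 FPKM in scramble, at 10.2, 1.55 and 1.31 after SiREV1#1 and at 24.2, 3.24 and 3.56 after SiREV1#2. Its replicate 1 values were many times the others in each group, and within a replicate number SiREV1#1 was again the lowest. EGLN3 fell by 0.97 ± 0.19 with the block (adjusted p = 0.0177), while without the block its adjusted p was 0.924. 

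ADM, the vasodilator peptide adrenomedullin, was at 46.5, 258.7 and 241.6 FPKM in scramble, at 21.7, 170.8 and 168.7 after SiREV1#1 and at 68.4, 469.3 and 493.7 after SiREV1#2. SiREV1#1 was the lowest and SiREV1#2 the highest in each replicate number, and replicate 1 was far below the others in each group. ADM fell by 0.66 ± 0.13 after SiREV1#1 (adjusted p = 0.0198 with the block and 0.983 without).

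Among the enzymes of glycolysis, PFKFB4, which sets the level of fructose 2,6-bisphosphate, was at 2.52, 3.31 and 2.39 FPKM in scramble, at 1.27, 1.48 and 1.45 after SiREV1#1 and at 3.41, 5.08 and 4.9 after SiREV1#2. The SiREV1#1 values lay under those of both other groups. PFKFB4 fell by 0.85 ± 0.17 (adjusted p = 0.0182 with the block and 0.265 without). ENO2, the enolase of neurons, was at 18.1, 13.1 and 13 FPKM in scramble, at 9.25, 8.09 and 7.35 after SiREV1#1 and at 16.7, 17 and 17.2 after SiREV1#2, and fell by 0.75 ± 0.14 (adjusted p = 0.0131 with the block and 0.277 without). The SiREV1#1 values of ENO2 did not reach either other group. PFKM, the muscle form of phosphofructokinase, was at 30.5, 28.2 and 26.5 FPKM in scramble and at 21.2, 13.4 and 14.3 after SiREV1#1, and fell by 0.73 ± 0.17 (adjusted p = 0.0336 with the block and 0.396 without). After SiREV1#2, PFKM was at 19.8, 19.5 and 19.1 FPKM, also under every scramble value, but this difference of -0.57 ± 0.21 did not pass (adjusted p = 0.202).

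ALDOC stood at 14.5, 7.31 and 6.16 FPKM in scramble, at 18.1, 10.6 and 8.54 after SiREV1#1 and at 9.86, 4.68 and 5.31 after SiREV1#2. SiREV1#1 was the highest of the groups in each replicate number and SiREV1#2 the lowest, while the groups overlapped because of replicate 1. ALDOC rose by 0.52 ± 0.13 after SiREV1#1 (adjusted p = 0.0396 with the block and 0.894 without).

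The count of 9 depended on single libraries. With the block kept, it was 2 without scramble replicate 1, 3 without scramble replicate 2 and 2 without scramble replicate 3. It was 4 without SiREV1#1 replicate 2, 2 without SiREV1#1 replicate 3 and 12 without SiREV1#1 replicate 1. It did not fall without either SiREV1#2 library. CA9 and P4HA1 passed in 8 of 8 such fits and EGLN3 in 5, while ENO2, ADM, PFKFB4, ALDOC and PFKM passed in 3 each and KDM3A in 4. The direction of all 9 held in all 8.

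**Figure D2:**
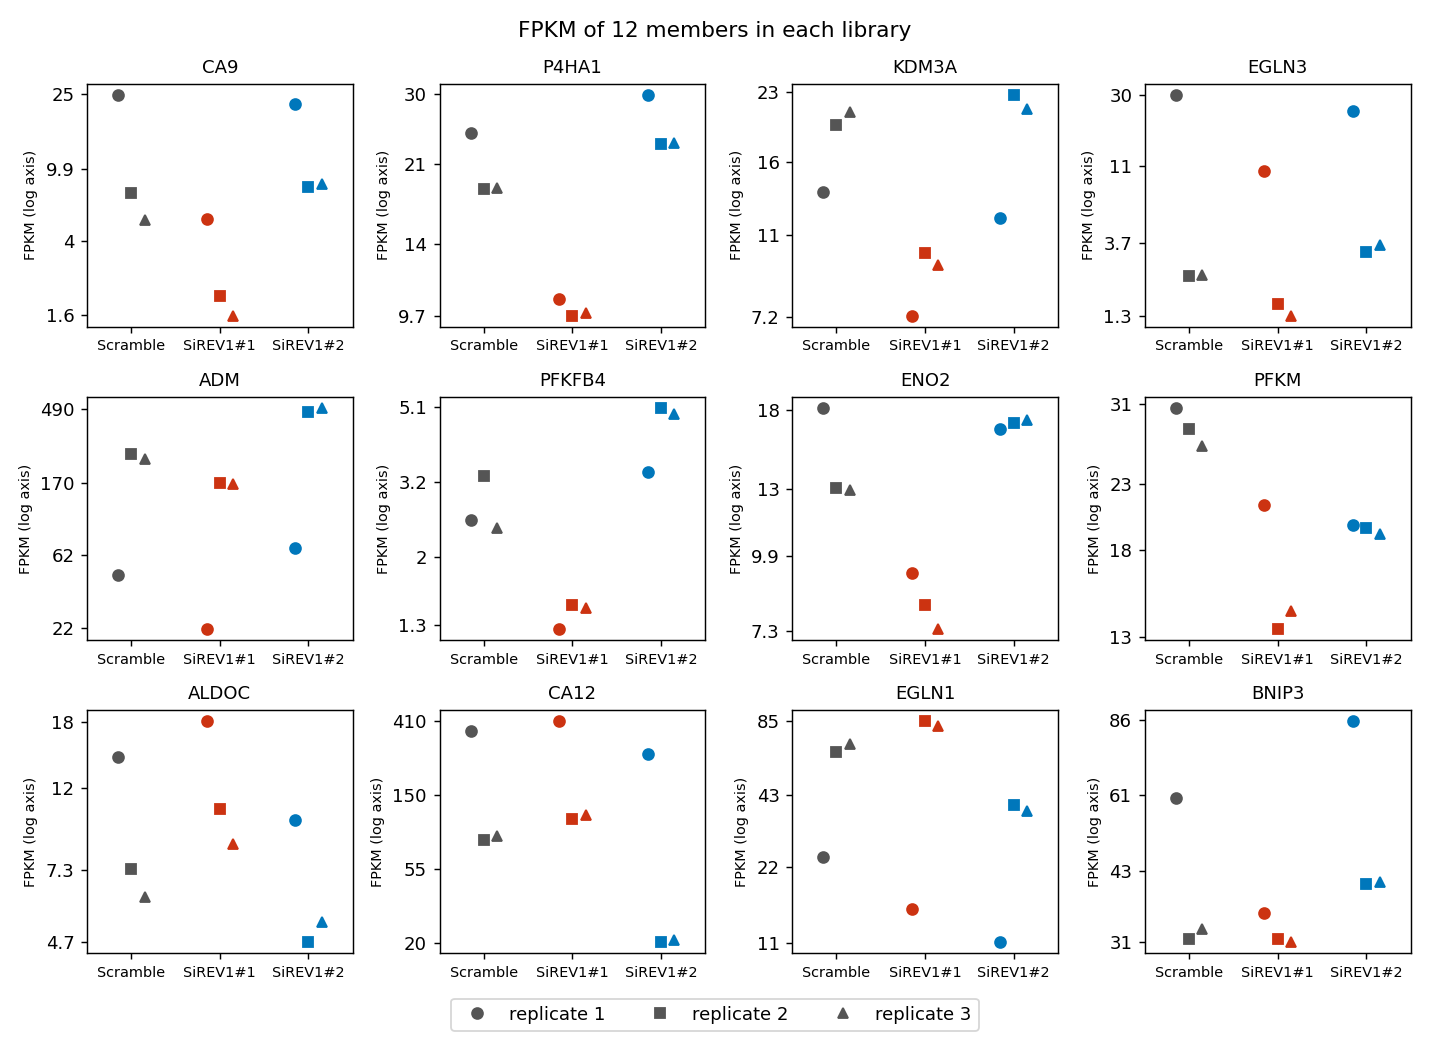
FPKM of 12 members on log axes, with scramble in grey, SiREV1#1 in red and SiREV1#2 in blue, and circles, squares and triangles for replicates 1, 2 and 3. The SiREV1#1 points lie under all others for P4HA1, KDM3A, PFKFB4 and ENO2, and the replicate 1 circle is the outlying point in each group for EGLN3, ADM, CA12 and EGLN1.

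The main glycolytic enzymes did not pass in this comparison. With the block, the log2 fold change after SiREV1#1 was 0.15 ± 0.15 for GAPDH, 0.055 ± 0.13 for ALDOA, 0.067 ± 0.14 for TPI1, -0.06 ± 0.23 for PGK1, -0.02 ± 0.21 for ENO1, 0.11 ± 0.17 for PKM and -0.06 ± 0.14 for LDHA, and none had an adjusted p under 0.5. The values of PGK1 and ENO1 average opposite moves. On log2(FPKM + 1), PGK1 was at -0.921 in the replicate 1 pair and at 0.222 and 0.192 in the others. ENO1 was at -0.788, and at 0.209 and 0.207 in the others. PKM and LDHA moved the other way, higher in the replicate 1 pair and lower in the others. In the fit with the block, HIF1A, EPAS1 and ARNT were at 0.24 ± 0.17, 0.26 ± 0.25 and -0.32 ± 0.18. Among HIF targets CA9, P4HA1, KDM3A and ADM fell, while VEGFA, the vessel growth factor, was at 0.11 ± 0.12, BNIP3, a mitophagy receptor, at -0.19 ± 0.17, NDRG1 at -0.32 ± 0.16 and DDIT4, an inhibitor of mTORC1, at 0.12 ± 0.35. Of the 9 called members, 5 (ALDOC, ENO2, P4HA1, CA9 and PFKM) held ACGTG in a promoter window, and the other 4 did not. Of those 4, ADM, KDM3A and PFKFB4 held GCGTG, and EGLN3 held neither form. Over all members with a window, ACGTG was in 22 of 37 (59.5%).

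After SiREV1#2, 0 of 41 members were called, with the block or without it. In all genes 1.91% were called with the block and 0% without. Unadjusted p-values under 0.05 were reached by 9 members with the block and 1 without, beside 2571 and 778 of all genes, and DESeq2 without the block also called 0 members. The nearest to the threshold was ADM, with a log2 fold change of 0.78 ± 0.15 (adjusted p = 0.0508), where the siRNA values were above scramble in 3 of 3 pairs. EGLN1, the main oxygen sensor of the HIF system, was at 24.1, 63.5 and 68.8 FPKM in scramble and at 11.1, 39.2 and 37.1 after SiREV1#2, a difference of -0.85 ± 0.21 (adjusted p = 0.0863). After SiREV1#1, EGLN1 was at 15.1, 84.6 and 80.9 FPKM. CA12, a further carbonic anhydrase of the cell surface, was at 359.0, 80.8 and 85.4 FPKM in scramble, at 410.2, 108.1 and 114.6 after SiREV1#1 and at 263.6, 20.2 and 20.9 after SiREV1#2. Its difference after SiREV1#2 was -1.10 ± 0.37 (adjusted p = 0.17), smaller in replicate 1 than in replicates 2 and 3.

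DDIT4 had a like pattern. It was at 213.0, 106.0 and 104.9 FPKM in scramble and at 141.8, 31.4 and 32.7 after SiREV1#2, lower in each pair, with a difference of -0.96 ± 0.43 (adjusted p = 0.286). After SiREV1#1, DDIT4 was at 120.1, 140.0 and 133.4 FPKM. HK2 had a fitted difference of -1.12 ± 0.53 after SiREV1#2 (adjusted p = 0.325), at levels of 0.03 to 0.49 FPKM. In FPKM, 10 of 39 members were higher than scramble in 3 of 3 pairs, beside 25.9% of all genes, and 12 were lower, beside 29.7%. The members were thus near the background in both directions. Leaving out 1 library changed the count under the block to 8 without SiREV1#1 replicate 1 and to 1 without SiREV1#2 replicate 1. Without the replicate 1 libraries, in 5 libraries, 24 of 40 members and 5450 of 14181 genes were called after SiREV1#2, and 25 members and 6597 genes after SiREV1#1. In that fit SiREV1#2 has 1 library, which is taken to vary like the other groups.

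**Figure D3:**
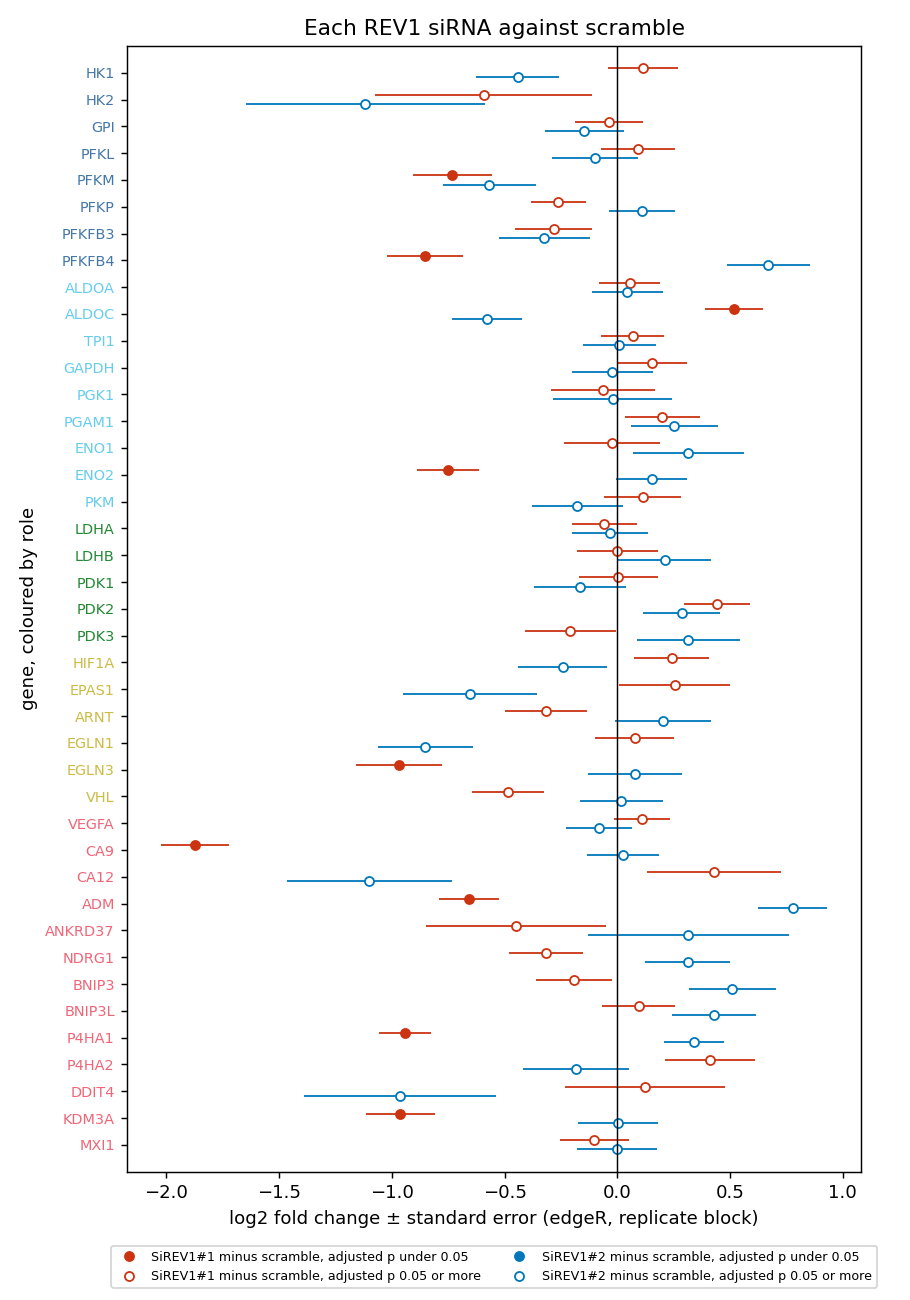
Log2 fold change against scramble with its standard error for each of the 41 genes, in the fit with the replicate block, for SiREV1#1 in red and SiREV1#2 in blue. Filled points passed an adjusted p of 0.05. There are 9 filled red points, led by CA9 at -1.87, and 0 filled blue points, and for PFKFB4, ALDOC, ADM and P4HA1 the colours lie on opposite sides of 0.

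The siRNAs were next compared with each other, since both target REV1 and REV1 did not differ between them by more than the spread (log2 difference 0.002 ± 0.15 with the block). Both comparisons above share the scramble libraries, and this one shares the siRNA libraries with them. With the block 11 members differed, 3 higher and 8 lower after SiREV1#1 than after SiREV1#2, beside 8.75% and 8.87% of all genes. Without the block 0 members and 0.676% of all genes were called. An unadjusted p under 0.05 was reached there by 7 members, beside 1762 of 14205 genes. The smallest adjusted p without the block was that of P4HA1 at 0.0554, followed by PFKFB4 at 0.0568. Higher after SiREV1#1 were ALDOC (log2 difference 1.10 ± 0.16), EGLN1 (0.93 ± 0.21) and CA12 (1.53 ± 0.37). Lower after SiREV1#1 were CA9 (-1.90 ± 0.17), PFKFB4 (-1.52 ± 0.19), ADM (-1.44 ± 0.16), P4HA1 (-1.28 ± 0.13), EGLN3 (-1.05 ± 0.22), KDM3A (-0.97 ± 0.18), ENO2 (-0.90 ± 0.16) and BNIP3 (-0.70 ± 0.20). Their adjusted p-values were between 0.00119 for CA9 and 0.0446 for BNIP3.

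By role, 6 of 13 HIF targets were called, and 2 of the 6 genes of HIF and its control, both of them hydroxylases and with opposite signs. Of the 22 glycolysis and pyruvate genes 3 were called, and of the 5 genes that act on pyruvate 0. In the same fit 2503 of all 14205 genes were called, and of 35 further tested HIF targets outside the set, 5. BNIP3 was at 60.1, 31.4 and 32.9 FPKM in scramble, at 35.4, 31.5 and 31.0 after SiREV1#1 and at 85.5, 40.5 and 40.9 after SiREV1#2, and thus nearly level between scramble and SiREV1#1 in replicates 2 and 3. CA9, PFKFB4, ADM, P4HA1 and ALDOC were called in 8 of 8 fits that left out 1 library with the block kept. ENO2, EGLN3 and KDM3A were called in 7, CA12 in 6, EGLN1 in 3 and BNIP3 in 2. The count fell from 11 to 6 without SiREV1#2 replicate 2, which leaves that group 1 library with counts.

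Replicate 1 was compared with replicates 2 and 3 in 1 fit that kept the 3 groups as terms. Most glycolytic enzymes were higher in replicate 1, as were PDK1, PDK2 and PDK3, EGLN3, CA9 and CA12, whereas HIF1A, EPAS1, ARNT, EGLN1, VEGFA and ADM were lower. Of the 41 members 32 were called by edgeR, 24 higher and 8 lower. Over all genes 31.2% were called higher and 30.7% lower, and 24 of 41 is 58.5% and 8 of 41 is 19.5%. The median log2 difference was 0.456 over the members and 0.0203 over all genes, and 0.859 over the 22 glycolysis and pyruvate genes, of which 17 were higher and 1 lower. In FPKM, replicate 1 was above both other replicates in 3 of 3 groups for 20 of 39 members, beside 27.4% of all genes, and below both in 3 of 3 groups for 8, beside 39.2%. The median over all genes was 0.125 with upper-quartile scaling and -0.111 on log2(FPKM + 1), so differences under about 0.1 depend on the scaling. None of the 32 called members changed sign under any alternative.

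Of the 8 genes from glucose to fructose 1,6-bisphosphate and its regulators, 6 were higher and 1 lower in replicate 1. HK1 was at 32.5, 38.9 and 29.5 FPKM in the replicate 1 libraries of scramble, SiREV1#1 and SiREV1#2, and between 8.63 and 14.9 FPKM in the other 6, a log2 difference of 1.49 ± 0.12 (adjusted p = 1.6e-05). HK2, the hexokinase that HIF induces, was at 0.49, 0.16 and 0.14 FPKM in replicate 1 and at 0.03 or 0.04 in the others. Its log2 difference was 2.85 ± 0.38 (adjusted p = 0.000208), on 61.1, 15 and 17.7 estimated reads in replicate 1 and 4.12 to 6.19 in the others. GPI, which turns glucose 6-phosphate into fructose 6-phosphate, was at 434.4, 318.0 and 406.1 FPKM in replicate 1 and between 142.5 and 182.4 in the others (1.25 ± 0.12). PFKP was the member that was lower, with 158.0 to 216.8 FPKM in replicate 1 and 263.4 to 360.3 in the others (-0.69 ± 0.09), while PFKL and PFKM were higher by 0.58 ± 0.13 and 0.37 ± 0.14. PFKFB4 did not pass.

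Of the 9 genes from aldolase to pyruvate kinase, 7 were higher. ALDOA was at 2029.8, 2026.2 and 2299 FPKM in the replicate 1 libraries and between 1054.7 and 1149.0 in the other 6, with no overlap (1.02 ± 0.10, adjusted p = 3.69e-05). PKM (1.16 ± 0.13), ALDOC (1.10 ± 0.12), TPI1 (0.95 ± 0.10), GAPDH (0.77 ± 0.12), PGAM1 (0.63 ± 0.13) and ENO2 (0.33 ± 0.11) followed. PGK1 and ENO1 were not called, at 0.46 ± 0.19 (adjusted p = 0.065) and 0.04 ± 0.18 (adjusted p = 0.864). In both genes replicate 1 was higher than replicates 2 and 3 in scramble and SiREV1#2 and lower in SiREV1#1, the library with the lowest depth. That library also had MTRNR2L2 as its highest gene, at 7.23% of its FPKM, where FTL led every other library. The part of either trait was not tested. GAPDH is a common reference gene in quantitative PCR, and here its FPKM was between 7392 and 8538 in replicate 1 and between 4460.5 and 5369 in the others.

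Of the 5 genes that act on pyruvate, 4 were higher. LDHA was at 1430.5, 1592 and 1551 FPKM in replicate 1 and between 654.1 and 778.4 in the others (1.14 ± 0.11, adjusted p = 2.96e-05), whereas LDHB was at 0.12 ± 0.15 and not called. The ratio of LDHA to LDHB was 1.47, 2.51 and 1.39 in replicate 1 of scramble, SiREV1#1 and SiREV1#2 and between 0.73 and 0.967 in the other 6 libraries. PDK1 was at 10.6, 6.66 and 8.17 FPKM in replicate 1 and between 2.7 and 3.75 in the others (1.60 ± 0.14), PDK2 at 8.15, 11.8 and 9.88 against 2.77 to 4.86 (1.27 ± 0.13), and PDK3 at 5.96, 3.1 and 7.51 against 1.9 to 3.53 (1.48 ± 0.16). These kinases inhibit pyruvate dehydrogenase. Together, 17 glycolytic enzymes took 3.41 to 3.84% of all FPKM in replicate 1 and 2.41 to 2.54% in the others.

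The genes of HIF and its control went the other way except for EGLN3. EPAS1 was at 116.8, 160.4 and 55.0 FPKM in replicate 1 and between 230.2 and 307.9 in the others (-1.29 ± 0.21), HIF1A was lower by less (-0.45 ± 0.13) and ARNT also (-0.57 ± 0.15). The ratio of EPAS1 to HIF1A was 0.599 to 1.12 in replicate 1 and 1.63 to 1.71 in the others. EGLN1 was lower in replicate 1 (-1.83 ± 0.15, adjusted p = 1.6e-05) and EGLN3 higher (3.26 ± 0.15, adjusted p = 9.7e-07), with the values per library given above. EGLN1 was 0.458 to 1.48 times EGLN3 in replicate 1 and 10.4 to 61.8 times in the other 6. VHL was not called.

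Of the 13 HIF targets, 6 were higher and 3 lower. CA12 (2.53 ± 0.27), CA9 (1.77 ± 0.15), DDIT4 (0.99 ± 0.32), BNIP3 (0.77 ± 0.14), BNIP3L (0.38 ± 0.13) and P4HA1 (0.36 ± 0.09) were higher, and ADM (-2.65 ± 0.12), KDM3A (-0.56 ± 0.12) and VEGFA (-0.47 ± 0.10) lower. VEGFA was at 19.9, 22.6 and 19.3 FPKM in replicate 1 and between 27.2 and 30.7 in the others, with no overlap. ANKRD37, NDRG1, P4HA2 and MXI1 were not called. ACGTG was in a promoter window of 17 of the 23 members higher in replicate 1 that had one. It was in 2 of the 7 lower, PFKP and EGLN1, and in 3 of the 7 not called. These shares were not computed for all genes called in replicate 1, and GCGTG was not counted by direction. Over all genes with a window and a mean over 1 FPKM, ACGTG was in 32.9%. Of the 5 genes of HIF and its control with a window, 1 held it, and HIF1A, EPAS1 and ARNT are among the lower members. A link of the motif to these calls was not tested.

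Other measures moved with replicate 1 as well. The total count was lowest in SiREV1#1 replicate 1, and the sum of the markers of other cell types was 40.2 to 83.8 FPKM in replicate 1 and 18.9 to 24.7 in the others. CD68, a lysosomal protein of macrophages, made up nearly all of that sum, and without it the sum was 0.65 to 2.2 and 0.39 to 0.88 FPKM. The epithelial sum was 11100 to 22490 and 9460 to 10530 FPKM. The part of these in the result was not tested. The 32 calls became 27 without scramble replicate 1 and 35 without SiREV1#1 replicate 1. With the replicate block they were 30, and with the block kept they became 20 without scramble replicate 1 and 21 without scramble replicate 3. Over all alternatives, these fits included, 20 of the 32 passed at an adjusted p of 0.05 wherever they were tested. The 12 that did not in some were ARNT, BNIP3L, DDIT4, ENO2, HIF1A, KDM3A, P4HA1, PFKFB3, PFKL, PFKM, PGAM1 and VEGFA.

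**Figure D4:**
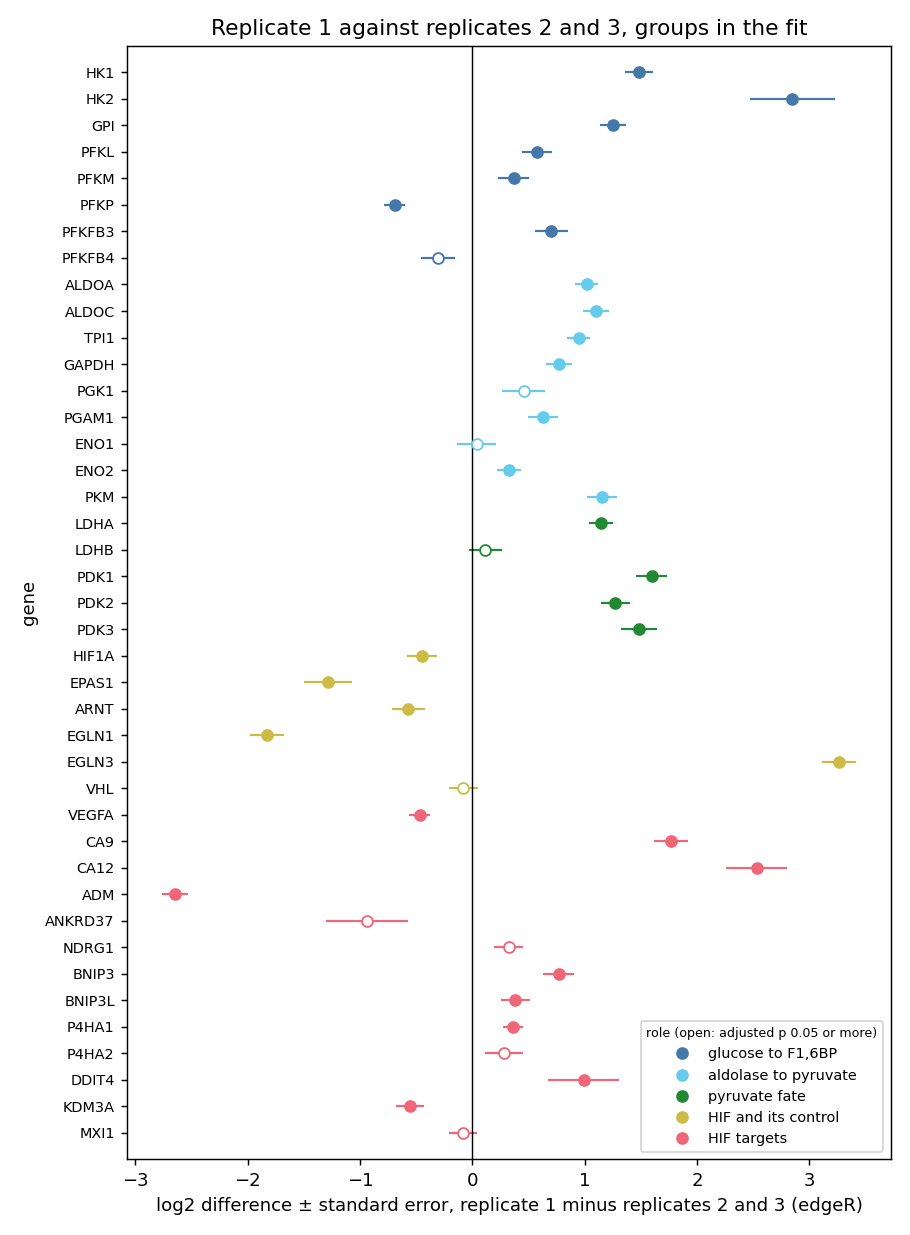
Log2 difference of replicate 1 minus replicates 2 and 3 with its standard error, for each of the 41 genes, coloured by role, from the edgeR fit on 8 libraries with the 3 groups as terms. Open points did not pass an adjusted p of 0.05. Most points from HK1 to PDK3 lie to the right of 0, HIF1A, EPAS1, ARNT and EGLN1 lie to the left, and EGLN3 (3.26) and ADM (-2.65) are at the ends.

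Among 76 further tested genes of the same pathways, from lists of transporters, other isozymes, pyruvate dehydrogenase, gluconeogenesis, HIF regulators and other HIF targets, 3 rose (3.95%) and 9 fell (11.8%) after SiREV1#1 with the block, beside 5.32% and 6.96% of all genes. After SiREV1#2, 0 passed, beside 1.91% of all genes. Between the siRNAs 6 (7.89%) were higher and 10 (13.2%) lower after SiREV1#1 than after SiREV1#2, beside 8.75% and 8.87%. Without the block PDHX, a structural part of pyruvate dehydrogenase, was the 1 gene called after SiREV1#1 and the 1 called between the siRNAs. PDHX was at 22.8, 16.9 and 17.9 FPKM in scramble, at 6.71, 5.7 and 4.97 after SiREV1#1 and at 32.5, 26.8 and 26.9 after SiREV1#2, with no overlap between the groups. It fell by 1.64 ± 0.13 after SiREV1#1 (adjusted p = 0.000977 with the block and 0.0461 without). HKDC1, a further hexokinase, fell by 0.79 ± 0.12, while AK4, a mitochondrial adenylate kinase, rose by 1.01 ± 0.15. Of the 6 glucose and lactate transporters on the lists, 1 was called with the block. It was SLC2A1, which fell by 0.75 ± 0.17 (adjusted p = 0.0282 with the block and 0.79 without). After SiREV1#2, SLC2A1 was at -0.41 ± 0.20 with the block (adjusted p = 0.338) and was also lower in 3 of 3 pairs. In replicate 1, 25 of the 76 were higher and 25 lower (32.9% each, beside 31.2% and 30.7% of all genes), with RIOK3 (-2.62 ± 0.11), HKDC1 (-2.14 ± 0.10), AK4 (2.28 ± 0.12), BHLHE41 (-4.92 ± 0.30) and GYS1 (1.64 ± 0.11) at the smallest p-values. HKDC1 was thus lower in replicate 1 while HK1 and HK2 were higher.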

How the data were processed

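RNA-seq of 9 libraries of A549 cells was analysed, 3 each for scramble, SiREV1#1 and SiREV1#2. For each library the authors deposited FPKM and expected counts (estimated read counts, not normalized; 42.6% not whole) for 18143 genes. StringTie 1.3.3b and hg38 stand in the submitters' processing notes without a stated role, and the aligner is not given in the sources used here. 1 count column, a repeat of replicate 2 under SiREV1#2 replicate 3, was not used (100.0% of its values equal, against 3.07% of FPKM).

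Rounded counts of the 14205 genes that filterByExpr kept were normalized with TMM factors and tested with edgeR 4.0.16 (quasi-likelihood, R 4.3.3) over all genes with Benjamini-Hochberg adjustment, an adjusted p under 0.05 being called. The standard error is the absolute log2 fold change over the square root of F. The planned fit has no block. Same-numbered libraries deviated together, with correlations of 0.734 to 0.929 in 9 pairs, so the replicate block is given beside it; replicates 2 and 3 of different groups also correlated at 0.751 to 0.914. Alternatives were DESeq2 1.42.0, upper-quartile scaling, other filters, limma-trend (limma 3.58.1) on log2(FPKM + 1) or log2(FPKM + 0.1), replicates 2 and 3 only, and leaving out each library. A term for replicate 1 alone, and leaving out libraries with the block kept, were added after seeing the data. Models were tested on simulated data.

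All members may be named. Values per library are given for members called in any comparison and the 3 largest changes, and where over 12 were called, for the 12 with the smallest p. Of other pathway genes at most 5 per comparison were named, by smallest p among those called. SLC2A1 was named after its value was seen. 1 gene that the rule names is not reported here. FBP1 and CD3E, on the lists, were not analysed here. The members and lists were chosen with earlier results of these data known. Sequences are from RefSeq (GRCh38.p14).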

Additional observations from a re-analysis of the deposited data

Results flagged for a closer look

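Some members moved in opposite directions in replicate 1 and in replicates 2 and 3, by at least 0.3 on the log2(FPKM + 1) scale in each library. PGAM1 after SiREV1#1 was at -0.347 against scramble in replicate 1 and at 0.31 and 0.38 in replicates 2 and 3. DDIT4 after SiREV1#1 was at -0.822, with 0.40 and 0.34 in the others. EGLN3 after SiREV1#2 was at -0.315, with 0.36 and 0.45 in the others. PGK1 was lower in replicate 1 than in replicates 2 and 3 after SiREV1#1, by -0.395, and higher in scramble (0.733) and after SiREV1#2 (0.874). These differences between replicate numbers rest on 1 library at one side and were not tested.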

How the results depend on the processing

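The number of members called, and that of all genes, depended on whether the fit took up the shift of replicate 1. With limma-trend on log2(FPKM + 1) and the block, 2249 of 11429 genes were called after SiREV1#1, 1291 after SiREV1#2 and 4167 between the siRNAs. With the term for replicate 1 only it was 2731, 991 and 3848 of 14205 genes. In replicates 2 and 3 only the calls over all genes rose as well. After SiREV1#1 the count of 0 became 9 with the replicate block, 2 with DESeq2, 1 with limma-trend on log2(FPKM + 1) or log2(FPKM + 0.1), 9 with limma-trend and the block, 7 with that and no filter, 10 with a term for replicate 1 only and 25 in replicates 2 and 3 only. After SiREV1#2 it became 6 with limma-trend and the replicate block, 1 with that and no filter, 3 with the term for replicate 1 only and 24 in replicates 2 and 3 only. Between the siRNAs it became 11 with the block, 3 with DESeq2, 1 with upper-quartile scaling, 2 with at least 10 counts in every library, 3 with either limma-trend fit, 21 with limma-trend and the block, 16 with that and no filter, 16 with the term for replicate 1 only and 27 in replicates 2 and 3 only. Leaving out each library without the block gave 0 in all of these comparisons. The count for replicate 1 against replicates 2 and 3 was 27 to 35 over the alternatives other than those that left out a library with the block kept, where it was 20 to 35, with 20 without scramble replicate 1 and 21 without scramble replicate 3. Signs reversed, without the block, where 1 library was left out and none of the reversed values passed the test. The log2 fold change of EGLN3 after SiREV1#1 ranged from -2.999 to 1.05, the latter without scramble replicate 1, and between the siRNAs from -3.295 to 0.571, the latter without SiREV1#2 replicate 1. Between the siRNAs CA12 ranged from -0.39, without SiREV1#1 replicate 1, to 3.502, with -0.235 without SiREV1#2 replicate 2, and ADM from -1.95 to 0.8001, the latter without SiREV1#2 replicate 2. Upper-quartile scaling moved the share of higher calls over all genes in replicate 1 from 50.4% to 57.0%, and limma-trend on FPKM to 41.5%, against 75.0, 76.5 and 71.4% of the members called. SiREV1#2 rests on at most 2 libraries in the count fits, which limits its tests. The cause of these changes was not tested.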
